A study of Mus musculus with 24 samples.

Results

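The Gimap genes, a family of small GTPases of the immune system, were followed in the gastrocnemius of mice on 3 high-fat diets. The family was taken as 8 named genes, Gimap1 and Gimap3 to Gimap9, and a probe was counted as a member when its gene name in the scanner files, or the current symbol of its accession, was one of these. Of the 8 genes, 7 had a probe, with 10 probes in all among the 41174 on the array, whereas no probe was matched to Gimap8. Signals bright enough to be compared were given by 4 probes of 3 genes, namely Gimap1, Gimap5 and Gimap6, among 15958 such probes of the whole array. The family was picked with the comparison of the cHF+ROSI and cHF mice in view, in which Gimap1 ranked 1 of all compared probes by its p-value. The values of that comparison are therefore given as a description, with no test.

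Gimap proteins are GTPases of immune-associated nucleotide binding protein type. They sit on membranes inside the cell, where several members are anchored by a C-terminal hydrophobic segment, and they are best known from lymphocytes, where loss of Gimap5 shortens the life of T cells and loss of Gimap1 depletes mature T and B cells. Gimap transcripts are also found in vascular endothelium. Skeletal muscle fibres are not a known main site of the family, and in whole muscle the RNA of fibres, vessels, blood and resident immune cells is measured together, so that fewer cells of a type and less RNA per cell cannot be told apart.

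All mice were males of the C57BL/6N strain that entered the diets at 3 months of age and stayed on them for 8 weeks, with 8 mice per group. The cHF mice ate a high-fat food in which lipids made up 35% of the weight. In the cHF+F diet 15% of these lipids was replaced by a concentrate of n-3 LC-PUFA with 46% DHA and 14% EPA, and the cHF+ROSI diet was the cHF diet with rosiglitazone, a PPARgamma agonist, at 10 mg per kg. Before death every mouse went through a fast of 10 hours and a night of re-feeding on Chow, so that none of them was eating its experimental diet at dissection. RNA of 1 mouse (Cy5) was hybridised with a pool of muscle RNA (Cy3) on each of the 24 arrays, and the pool also held RNA of mice on a higher rosiglitazone dose, not analysed here.

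The 10 member probes lie within 1 stretch of chromosome 6 in the coordinates of the scanner files (mouse build mm8). The Gimap6 probe covers bases 48631385 to 48631444 on the minus strand, that of Gimap1 bases 48672996 to 48673055, and the Gimap5 probes bases 48676977 to 48677036 (A_52_P102931) and 48683088 to 48683147 (A_51_P176365), all on the plus strand. The first Gimap5 probe was named by the scanner files alone, through the accession of a cDNA clone, and which part of the transcript the probes meet (exon, UTR) was not analysed here. The sequences upstream of the 3 genes that could be compared are printed here because the values of these genes correlated positively over the arrays. Each is the run of 250 bases that ends at the RefSeq start of the gene, 5′ to 3′, taken from RefSeq in another build, GRCm38.p6, whose coordinates cannot be set against those of the probes. Capitals mark matches to any of the 6 motifs searched.
Gimap1, chr6:48738797-48739046, plus strand: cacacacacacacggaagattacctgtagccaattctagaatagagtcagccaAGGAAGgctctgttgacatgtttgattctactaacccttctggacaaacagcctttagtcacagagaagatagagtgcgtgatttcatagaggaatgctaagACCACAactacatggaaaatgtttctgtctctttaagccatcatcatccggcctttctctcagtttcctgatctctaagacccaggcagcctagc
Gimap5, chr6:48745947-48746196, plus strand: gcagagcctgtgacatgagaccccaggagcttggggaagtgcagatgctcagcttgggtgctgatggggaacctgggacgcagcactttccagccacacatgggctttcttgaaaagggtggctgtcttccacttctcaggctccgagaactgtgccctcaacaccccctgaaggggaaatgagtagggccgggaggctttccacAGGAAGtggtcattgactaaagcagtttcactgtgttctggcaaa
Gimap6, chr6:48708245-48708494, minus strand: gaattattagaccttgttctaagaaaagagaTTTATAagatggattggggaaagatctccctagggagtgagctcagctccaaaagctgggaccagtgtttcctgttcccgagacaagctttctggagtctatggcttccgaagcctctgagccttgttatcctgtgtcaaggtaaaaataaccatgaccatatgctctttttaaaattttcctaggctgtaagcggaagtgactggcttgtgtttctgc

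The motifs were searched on both strands. The hexamer bound by nuclear receptors such as PPARgamma was written as AGGTCA, and its direct repeat, which holds that hexamer and therefore overlaps it, as AGGTCANAGGTCA. For the ETS factors, which are active in lymphocytes and in endothelium, the letters searched were AGGAAG. The RUNX factors of the blood lineages were given the letters TGTGGT, the response element of interferon was written as GAAANNGAA, and the box at which many promoters assemble the polymerase was searched as TATAAA. The Gimap1 window held AGGAAG, whose first base is 197 bases before the start, and the reverse complement of TGTGGT at 95 bases. In the Gimap5 window AGGAAG was found at 45 bases, and in the Gimap6 window the reverse complement of TATAAA at 219 bases. Over the family, the 8 genes had 9 windows, since Gimap8 has 2 starts, whose windows overlap. AGGAAG or its complement was present in 7 of the 9 windows, all but that of Gimap6 and 1 of Gimap8, beside 29.5% of all 32851 windows of the same length, and TGTGGT in 3 of 9, beside 14% of all windows. Neither AGGTCA nor its direct repeat was found upstream of any of the 8 genes, beside 14% and 0.0335% of all windows, and GAAANNGAA was found upstream of none, beside 7.13%. These matches are descriptions of letters in a short window, and other spellings of these sites were not searched.

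Before the values, 4 arrays had to be set apart. On cHF array 3, cHF+F array 1 and cHF+ROSI arrays 2 and 3 a small number of spots, at most 51 in Cy5, had a very bright local background (1206 to 64974 intensity units at the brightest, beside at most 598 on the other 20 arrays). The background model (normexp) then estimated a background SD of 25.7 to 959 units in Cy3 on these 4 arrays, beside 0.92 to 13.4 on the others, and in Cy5 of 8.35 on cHF array 3 and of 105.4 to 990.6 on the other 3. The log2 ratios on them were drawn towards 0, with a median absolute deviation of 0.029 to 0.18. When any local background over 2 times the median of its array was set to that median, the background SD was 1.00 to 1.44 in Cy5 on these arrays and the median absolute deviation 0.16 to 0.23. These values, called capped, were computed after the data were seen and are given beside the others. The arrays also differed in brightness, with 30.4% to 61.3% of spots well above background in Cy5 on 23 arrays and 91.1% on cHF+ROSI array 4.

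Gimap1 was measured well above background on all 24 arrays in both channels, and its Cy5 signal was on average 9.86 times the background. Its log2 ratio of mouse over pool had a lowest, median and highest value of 0.055, 0.20 and 0.37 in the cHF mice. In the cHF+F mice these were -0.22, 0.021 and 0.15, and in the cHF+ROSI mice -0.20, -0.061 and 0.063. The groups overlapped, but all 8 cHF+F arrays and all 8 cHF+ROSI arrays lay below the cHF mean of 0.21 ± 0.12 (SD, n = 8), and 7 of the cHF+ROSI arrays lay below the lowest cHF array. Over all compared probes, 3.00% had all 8 cHF+F arrays below the cHF mean and 2.01% all 8 cHF+ROSI arrays. No rarity is read from these shares, since Gimap1 was selected on the cHF+ROSI and cHF values. The share of probes with 7 cHF+ROSI arrays below the lowest cHF array is not given here, and nothing is read from that count. The cHF+F count rests on the same cHF arrays. With capped background the cHF+ROSI median was -0.10, all 8 arrays again lay below the cHF mean, and this held for 1.99% of all compared probes. That share is likewise given as a description, for the same reason.

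Gimap5, the member whose loss shortens T cell survival, was read by 2 dimmer probes. A_52_P102931 was at 3.31 times the background in Cy5 and 2.02 times in Cy3, where the cut was 2. It was well above background on 23 arrays in Cy5 and on 18 in Cy3. Its Cy5 signal was 787 units on cHF+ROSI array 4 and at most 259.5 on any other array. Whether this probe would pass the cut without that array is not given here. A_51_P176365 was at 4.22 times in Cy5 and 2.62 times in Cy3, and well above background on 24 and 22 arrays. For A_52_P102931 the lowest, median and highest log2 ratio were 0.026, 0.22 and 0.46 in the cHF mice, -0.14, -0.035 and 0.30 in the cHF+F mice, and -0.39, -0.033 and 0.21 in the cHF+ROSI mice. The highest cHF+F and cHF+ROSI arrays thus lay within the cHF range, and 5 and 6 arrays, respectively, lay below all cHF arrays. The share of all compared probes with such counts is not given here, and nothing is read from them. For A_51_P176365 the values were -0.13, -0.020 and 0.092 in cHF, -0.38, -0.16 and 0.12 in cHF+F, and -0.46, -0.14 and -0.0044 in cHF+ROSI. The SD of this probe was 0.076 in cHF, 0.16 in cHF+F and 0.17 in cHF+ROSI (n = 8 each), and with capped background 0.10, 0.16 and 0.15. With capped background cHF array 3 moved from 0.060 to 0.19, which made it the highest cHF array, and in the cHF+ROSI mice the median was -0.18 and the highest value -0.073.

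Gimap6, a member that has been linked to autophagy in lymphocytes, was well above background on all 24 arrays (11.2 times the background in Cy5). Its lowest, median and highest log2 ratio were -0.13, 0.21 and 0.35 in the cHF mice, -0.21, -0.0023 and 0.25 in the cHF+F mice, and -0.14, -0.047 and 0.17 in the cHF+ROSI mice. The cHF arrays were split, with replicates 1, 2 and 3 at -0.12, -0.13 and 0.025 and replicates 4 to 8 between 0.15 and 0.35. The cHF arrays 1 to 3 were also the dimmer ones, with 30.4% to 46.0% of spots well above background in Cy5. On the cHF arrays 4 to 8 this share was 50.3% to 59.3%. Whether the split came from the mice or the arrays was not tested. The 3 groups overlapped, and 4 of the cHF arrays lay above every cHF+F array and above every cHF+ROSI array. For this count too the share of all compared probes is not given here.

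**Figure D1:**
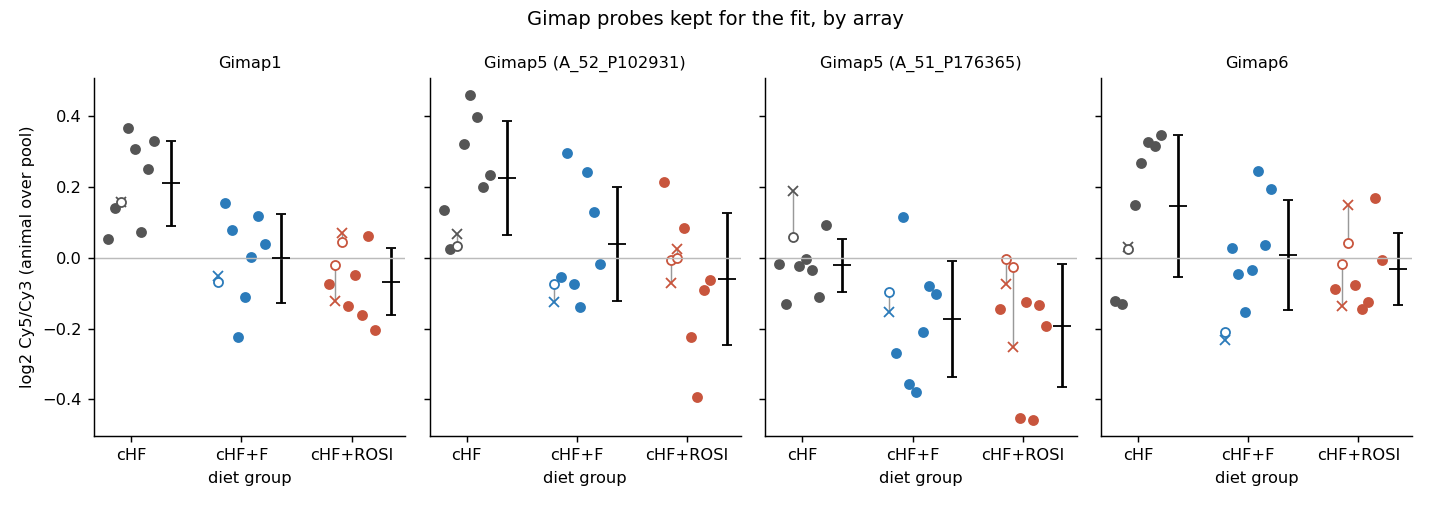
Log2 ratio of mouse (Cy5) over pool (Cy3) for the 4 Gimap probes that could be compared, 1 point per array in replicate order from left to right, with bars for the group mean ± SD (n = 8). Open circles are the 4 arrays whose background estimate was spoiled, each joined to a cross that gives its value with capped background. For Gimap1 all cHF+F and cHF+ROSI points lie below the cHF mean of 0.21, and for every probe the groups overlap.

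The first comparison asked whether the n-3 LC-PUFA concentrate altered the family. It shares the cHF arrays with the comparison the family was picked on, so that it is not independent of the choice. Gimap1 differed by -0.21 on the log2 scale (SE 0.060, 95% interval -0.34 to -0.088) between the cHF+F and cHF mice, with a limma adjusted p of 0.388. The Gimap5 probes differed by -0.19 (A_52_P102931, SE 0.082, limma adjusted p 0.661) and -0.15 (A_51_P176365, SE 0.072, limma adjusted p 0.715), and Gimap6 by -0.14 (SE 0.077, limma adjusted p 0.817). Thus 0 of 4 probes passed the test, as did 0% of all compared probes, and 3 of the 4 were lower at an unadjusted p under 0.05, beside 4.00% of all compared probes. The smallest adjusted p of any probe was 0.0774, and the median change over the 4 probes was -0.17, beside 0.00063 over all compared probes. With capped background 3 of 4 were lower at this threshold too, beside 3.95% of all. On the same slide, the cHF+F array was below the cHF array for Gimap1 on 7 of 8 slides, for A_52_P102931 and Gimap6 also on 7, and for A_51_P176365 on 6. How many of all compared probes reach such slide counts is not given here, so that nothing is read from them.

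The family was chosen on the values of the mice given rosiglitazone. Relative to cHF, the mean log2 ratios of the cHF+ROSI mice differed by -0.28 for Gimap1 (SE 0.060), -0.29 (A_52_P102931, SE 0.082) and -0.17 (A_51_P176365, SE 0.072) for Gimap5, and -0.18 for Gimap6 (SE 0.077). All 4 probes lay lower at an unadjusted p under 0.05, which held for 3.01% of all compared probes, and nothing is read from this count, since Gimap1 was selected on it. At an adjusted p under 0.05 the share of all compared probes was 0%. On the same slide the cHF+ROSI array was below the cHF array on 8 of 8 slides for Gimap1, on 7 for both Gimap5 probes and on 5 for Gimap6. The share of all compared probes with such slide counts is not given here, and nothing is read from them. With capped background the differences were -0.29, -0.29, -0.23 and -0.18 in the same order, again with all 4 at an unadjusted p under 0.05, beside 3.40% of all compared probes. These mice share the cHF arrays with the first comparison, so both sets of values move together where the cHF arrays are high.

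Whether the additions differed from each other was asked by setting the cHF+F against the cHF+ROSI mice. The cHF+ROSI arrays were part of the comparison the family was picked on, so that this test too is not independent of the choice. The log2 differences were 0.065 for Gimap1 (SE 0.060, 95% interval -0.059 to 0.19), 0.098 and 0.019 for the Gimap5 probes (A_52_P102931, interval -0.071 to 0.27, and A_51_P176365, interval -0.13 to 0.17) and 0.039 for Gimap6 (interval -0.12 to 0.20). None of the 4 probes passed the test (limma adjusted p 0.872 to 0.975), and 0 had an unadjusted p under 0.05, beside 6.67% of all compared probes. The intervals of the 4 probes together run from -0.13 to 0.27, and differences between the 2 diets within them are not excluded.

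A log2 ratio can differ because of the mouse or because of the pool, and the pool was the same RNA on every array. The Cy3 signal of the Gimap5 probe A_52_P102931, quantile normalized between arrays, was higher by 0.15 (SE 0.054) on the cHF+F than on the cHF arrays and by 0.12 (SE 0.054) on the cHF+ROSI arrays. In Cy5 alone the same probe differed by 0.12 (SE 0.15) and -0.029 (SE 0.15), so that its lower ratio was not seen in the channel of the mouse. The other Gimap5 probe differed by -0.018 (SE 0.14) and -0.17 (SE 0.14) in Cy5 alone, with Cy3 values of 0.12 (SE 0.091) and 0.075 (SE 0.091). Gimap1 differed in Cy5 alone by -0.31 (SE 0.17) in the cHF+F mice and by -0.43 (SE 0.17) in the cHF+ROSI mice, and Gimap6 by -0.22 (SE 0.13) and -0.24 (SE 0.13). For these 2 genes the mouse channel carried the same sign as the ratio, with wider errors. Each diet had 1 fixed place on the slide, so that diet and place cannot be told apart.

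**Figure D2:**
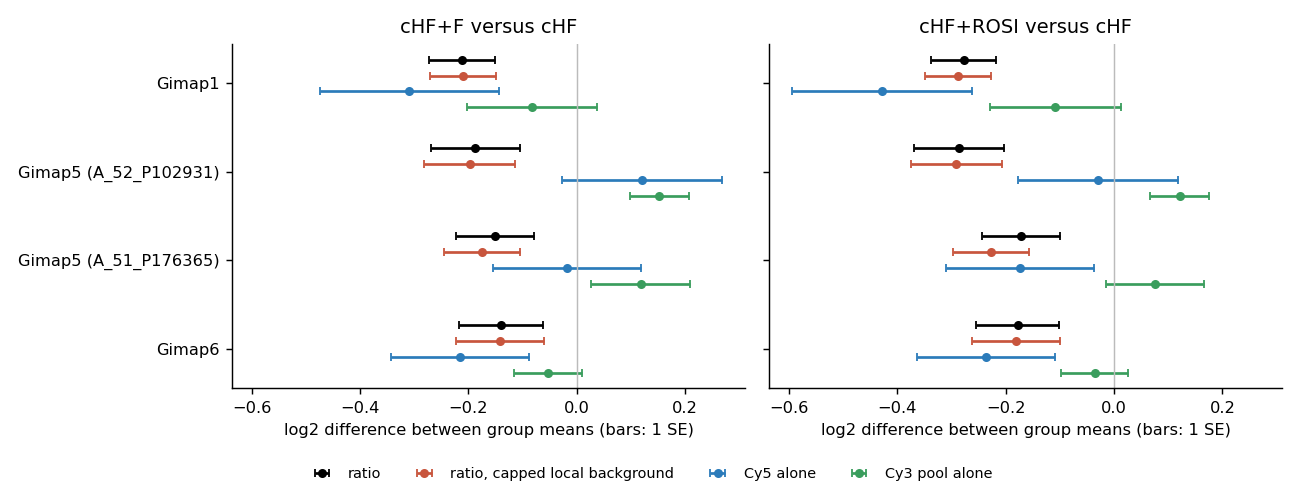
Log2 differences between group means (x axis, bars ± 1 SE, 8 arrays per group) for the 4 Gimap probes in both comparisons with cHF, as mouse over pool ratio, as the ratio with capped background, in Cy5 alone and in the Cy3 pool alone. The Cy3 points of Gimap5 A_52_P102931 lie at 0.15 and 0.12, above 0, while its Cy5 points lie at 0.12 and -0.029.

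The members that could not be compared were Gimap3, Gimap4, Gimap7 and Gimap9. Gimap4, known from T cell death, was on average the brightest of them, at 2.22 times the background in Cy5 and 1.67 times in Cy3. Its Cy5 signal was 748 units on cHF+ROSI array 4 and at most 133.5 on any other array, so that this average rests in part on 1 array. It was well above background in Cy5 on 4 cHF, 8 cHF+F and 8 cHF+ROSI arrays. Fitted without the filter on dim probes, its log2 difference from cHF was 0.11 (SE 0.072) in the cHF+F mice and 0.10 (SE 0.072) in the cHF+ROSI mice. The Cy5 signal of Gimap9 was 767 units on cHF+ROSI array 4 and at most 123 on any other. Gimap9 was well above background in Cy5 on 5 arrays of each group, with differences of -0.027 and 0.061 (SE 0.067). In Cy3, the channel of the pool, they were well above background on 2 (Gimap4) and 1 (Gimap9) of 24 arrays, so that the signs of these ratios are not read. The Gimap7 probes were above background in Cy5 on 3 and 1 of 24 arrays, and those of Gimap3 on 0 of 24, so that no level of these genes was measured.

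Over the 24 arrays, the compared probes correlated positively with each other within the diet groups. The r of other pairs of probes on the array is not given here. After the group means were removed, Gimap1 correlated with Gimap6 at r = 0.51, with A_51_P176365 at 0.50 and with A_52_P102931 at 0.35, and the 2 Gimap5 probes with each other at 0.41. Over the 6 pairs r lay between 0.19 and 0.51, and between 0.43 and 0.71 once slide means were also removed. With capped background the ranges were 0.10 to 0.53 and 0.070 to 0.67. The dim probe of Gimap4 correlated with the 4 compared probes at -0.068 to 0.020, and that of Gimap9 at -0.17 to 0.32. The arrays share slides and a pool, so that these are descriptions without a test.

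**Figure D3:**
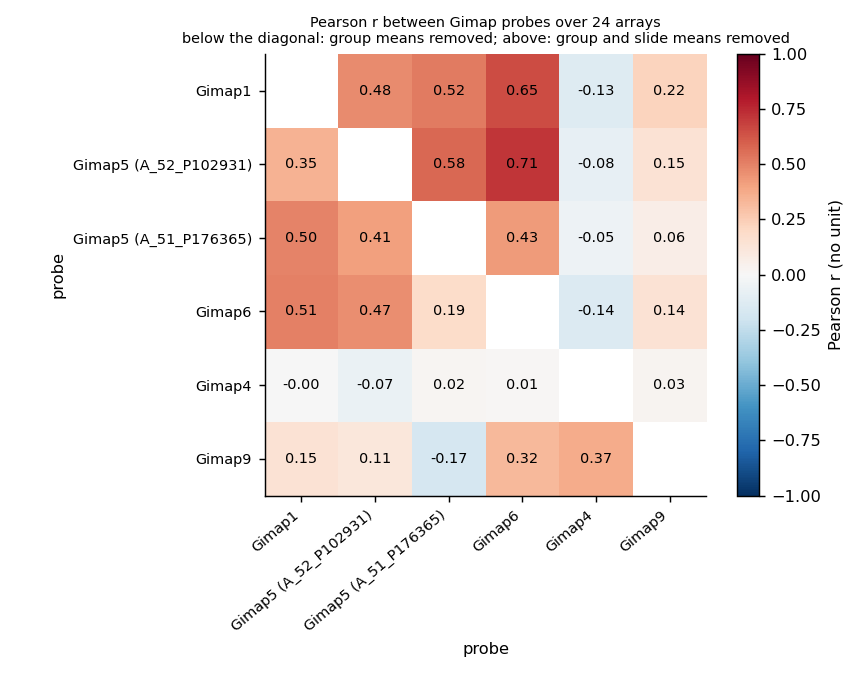
Pearson r between 6 Gimap probes over 24 arrays (colour scale from -1 to 1), with group means removed below the diagonal and group and slide means removed above it. The 4 compared probes have r of 0.19 to 0.51 below and 0.43 to 0.71 above the diagonal, while r of Gimap4 with them lies at 0.02 or less.

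The genes next to the family were examined for their own differences. Within 500 kb of the outermost Gimap probes there were 39 probes of 27 other genes, of which 16 probes of 12 genes could be compared. Their log2 differences ranged from -0.12 to 0.044 (median -0.035) in the cHF+F and from -0.14 to 0.18 (median -0.013) in the cHF+ROSI mice, and 0 of the 16 had an unadjusted p under 0.05 in either comparison. The median of the 4 Gimap probes was -0.17 and -0.23, but these were chosen on cHF+ROSI versus cHF and the neighbours were not, so that nothing is read from the difference.

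**Figure D4:**
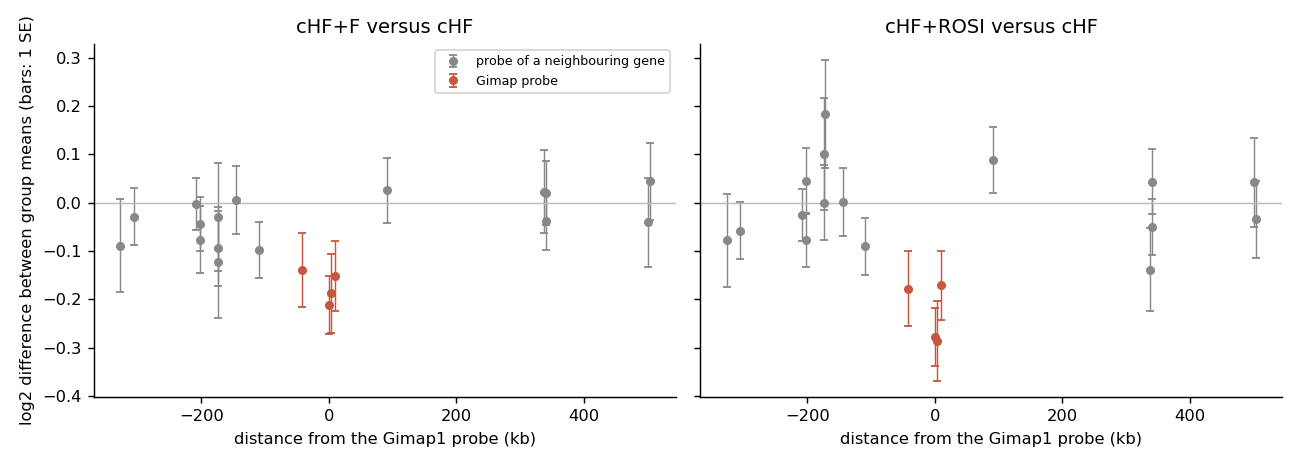
Log2 difference between group means (y axis, bars ± 1 SE) against the distance in kb from the Gimap1 probe, for the Gimap probes and for 16 probes of neighbouring genes. The 4 Gimap probes lie between -0.29 and -0.14 and the neighbours between -0.14 and 0.18, and the Gimap probes were chosen on the cHF+ROSI values.

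Markers of the cells that are known to express the family were set beside it. Of 14 T cell markers, 2 were bright enough to be compared, Thy1 and Cd8b1, and the other 12 had too little signal in one or both channels, with 1.46 (Lck) to 3.49 (Cd3e) times the background in Cy5. Lck was well above background in Cy5 on 0 and Cd3e on 18 of the 24 arrays. Thy1, a surface protein that other cells also carry, differed by -0.12 in cHF+F and -0.0082 in cHF+ROSI, and Cd8b1, a chain of the CD8 coreceptor, by 0.18 and 0.086, none with an unadjusted p under 0.05. Of 6 NK cell markers 0 and of 8 B cell markers 1 (Ighm, an immunoglobulin heavy chain) could be compared. Ighm differed by -0.49 in cHF+F, with an unadjusted p of 0.028 in limma, and by -0.27 in cHF+ROSI, and its correlation with the family score, described next, was -0.25. In contrast, 7 of 8 general leukocyte markers and all 16 endothelial markers could. All 10 markers of muscle fibres, the labelled tissue, could be compared. The mean log2 ratio of the 7 leukocyte markers ranged from -0.11 to 0.11 in the cHF mice, from -0.33 to 0.19 in the cHF+F mice and from -0.26 to 0.12 in the cHF+ROSI mice, with 0 markers at an unadjusted p under 0.05 in either comparison (1, in cHF+ROSI, with capped background). Their mean correlated with the score of the family (mean of Gimap1, Gimap5 and Gimap6 after scaling, group means removed) at r = 0.10.

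The endothelial markers lay lower in the cHF+F mice. All 16 had a negative difference, with a median of -0.11, beside 49.6% of all compared probes with a negative difference. At an unadjusted p under 0.05, 5 were lower, beside 4.00% of all compared probes. Their mean log2 ratio ranged from -0.079 to 0.17 in the cHF mice and from -0.25 to -0.089 in the cHF+F mice. For the cHF+ROSI mice it ranged from -0.18 to 0.083. The cHF and cHF+F ranges lay close but did not overlap, and how often other gene sets show such a gap was not computed. The list was chosen with earlier results of these data known, and it holds Cldn5 (-0.65 in cHF+F) and Icam2 (-0.25). Cldn5 is also among the genes that the authors list as lower in cHF+F. Nothing is therefore read from the count or the gap. In the cHF+ROSI mice 12 of 16 were negative, with a median of -0.042, beside 54.7% of all compared probes. At an unadjusted p under 0.05, 3 were lower, beside 3.01% of all compared probes. With capped background 15 of 16 were negative, with a median of -0.085 and 4 at that threshold, beside 3.40%. Within the groups the mean of the list correlated with the family score at r = 0.38, and at 0.52 after slide means were removed. The markers most correlated with the family were Erg, an endothelial transcription factor (r = 0.49), Pecam1, an adhesion molecule (0.49), Egfl7, a secreted vessel protein (0.48), and Tek, the angiopoietin receptor (0.45). Of the 16 markers 3 correlated negatively, namely Sox18 (-0.42), Eng (-0.39) and Sox17 (-0.20). Over 10427 genes the 95th percentile of r was 0.47, near the values of the most correlated markers. After slide means were removed it was 0.51, with Erg at 0.55, Egfl7 at 0.54, Tek at 0.52 and Pecam1 at 0.42. The part of the endothelial markers in the Gimap values was not tested.

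Among pathways close to the family, 9 of 12 interferon-inducible GTPases could be compared, which are also GTPases of immune defence but of another family. In the cHF+F mice 6 of the 9 were negative (median -0.13), beside 49.6% of all compared probes. In the cHF+ROSI mice also 6 were negative (median -0.065), beside 54.7% of all. Nothing is read from these counts, and 0 of the 9 had an unadjusted p under 0.05 in either comparison. Gbp3 (r = 0.68), Tgtp1 (0.58), Gbp2 (0.49) and Irgm1 (0.40) had the highest correlation with the family score. Of the BCL2 family, on which the survival of lymphocytes depends, 7 of 10 genes were compared. At an unadjusted p under 0.05, 1 was lower in each comparison, beside 4.00% (cHF+F) and 3.01% (cHF+ROSI) of all compared probes. This was the pro-apoptotic Bcl2l11 (-0.25 and -0.27), with a correlation of 0.36. With capped background 0 of the 7 were lower at this threshold in the cHF+ROSI mice (Bcl2l11 at -0.19) and 1 was higher, the anti-apoptotic Bcl2l1 (0.21). Bak1, another pro-apoptotic member, had the highest correlation (0.52) and differences of -0.13 and -0.11. Bax correlated at 0.18, whereas Bcl2 (-0.48), Mcl1 (-0.44), Bcl2l1 (-0.36) and Bbc3 (-0.099) correlated negatively. The mean of the 7 genes correlated with the family score at r = -0.24. Of 10 genes of lymphocyte homing and quiescence 5 were compared. Ets1 (-0.15 in the cHF+F mice) was the 1 gene at an unadjusted p under 0.05, in the cHF+F comparison, where 4.00% of all compared probes were lower. Il7r, Ccr7, Tcf7 and Lef1, which mark resting lymphocytes, were above background in Cy5 on 1 to 2 of 24 arrays.

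The genes whose pattern over the 24 arrays was most like that of the family, after group means were removed, were Ccrl2 (r = 0.77), an atypical chemokine receptor, Kctd20 (0.76), Gucd1 (0.75), Fam161a (0.75), Ankrd16 (0.74), Washc1 (0.73), Baiap2l2 (0.73), Fbxo32 (0.73), a muscle ubiquitin ligase, Ddx1 (0.71), an RNA helicase, and Kcnj8 (0.71), a potassium channel subunit. They were the highest of 10427 genes, over which the median r was 0.040 and the 95th percentile 0.47. The order depended on what was removed, since 2 of the 10, Kctd20 and Gucd1, were also among the 10 highest after slide means were removed, a ranking led by Inpp4b (0.85). With capped background 4 of the 10 were kept among the 10 highest, namely Ccrl2, Gucd1, Fbxo32 and Fam161a. The log2 differences of the 10 genes ranged from -0.31 to -0.021 in the cHF+F mice and from -0.58 (Fbxo32) to 0.076 (Ddx1) in the cHF+ROSI mice.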

How the data were processed

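Whole genome expression of the gastrocnemius was measured on 24 two-colour arrays, 8 per diet, 1 mouse per array. Per the file headers, the deposited scanner files hold spot and local background intensity on a linear scale, quantified by Feature Extraction version 10.5.1.1, and also intensity values that it had processed. The authors also deposited a table of log2 values, normalized by them with all column medians equal, of which 16 columns were used as an alternative and 8, of a combined diet, were not used.

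Median spot intensities were background corrected (normexp, offset 50), normalized within arrays (loess, span 0.3, control and flagged spots with weight 0) and averaged over the spots of a probe. Flagged spots were set to missing. Probes whose mean signal was at least 2 times the background in both channels and at least 4 unflagged arrays per group were kept. Of the 15958 kept probes, 12577 were named through their accession in RefSeq (GRCm38.p6) and 2270 by the scanner files. The log2 ratios of the 3 groups were fitted in 1 model with limma 3.58.1 in R 4.3.3, without a block, and adjusted over all kept probes by the Benjamini-Hochberg method. The reference channel was fitted in the same way. The fit was also run on simulated data with independent noise on every array. That simulation holds neither shared slides nor spoiled backgrounds, so that nothing about the fit to these arrays is read from it.

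Same-numbered arrays share a slide, by the header of the files, and their deviations from the group means correlated at -0.11 to 0.64 over all kept probes. The labels number the samples as replicates, 1 mouse each. The members, the marker and pathway lists and the alternatives were chosen with earlier results of these data known. Named were all members by every probe, the 10 genes most like the family score, and from each list up to 4 genes with the highest correlation. Some further genes of the lists were also named. Alternatives were no background correction, processed signals, mean spot signals, other loess settings, Cy5 alone, other filters, the slide as a block, array weights, the methods' t-test, arrays left out and the authors' table. The capped background and 4 further settings were added after seeing the data.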

Additional observations from a re-analysis of the deposited data

How the results depend on the processing

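In every setting that kept the mouse over pool ratio, the 4 Gimap probes stayed lower with either addition than in cHF. None of them passed an adjusted p under 0.05 in limma in any of these settings. The settings reuse the arrays on which the family was picked, so that nothing is read from the unchanged direction. The counts for cHF+ROSI versus cHF below are a description, with no test. In Cy5 alone the Gimap5 probe A_52_P102931 was higher by 0.12 in the cHF+F mice (0.16 with capped background). As reported, the number of Gimap probes at an unadjusted p under 0.05 in cHF+F versus cHF was 3, and it was 1 with processed signals, 0 with median centring, and 0 in Cy5 alone with or without capped background. In cHF+ROSI versus cHF it was 4, and 2 with median centring and 1 in Cy5 alone with or without capped background. Leaving out 1 array at a time gave 1 to 4 in cHF+F versus cHF, with 1 without cHF replicate 4, 5 or 6 or cHF+F replicate 2, 4 or 5, and 2 to 4 in cHF+ROSI versus cHF, with 2 without cHF+ROSI replicate 6. The median change over the Gimap probes in cHF+ROSI versus cHF, -0.23, was -0.34 without replicates 1 to 3 of every group and -0.059 over all 10 probes with no filter. The difference of A_51_P176365 between cHF+F and cHF+ROSI, 0.019, was -0.018 with array weights, -0.022 without cHF+F replicate 3, -0.018 without cHF+ROSI replicate 4 and -0.019 without cHF+ROSI replicate 6, and it ranged from -0.022 to 0.049 over all arrays left out in turn. The causes were not tested. With the replicate number, which is the slide, as a block, the differences were the same and the limma adjusted p of Gimap1 in cHF+F versus cHF was 0.159 (0.149 to 1.00 over the alternatives). The block changed no call of a Gimap probe, while over all compared probes the number at an adjusted p under 0.05 in cHF+F versus cHF went from 0 to 6 with the block (8 with capped background too) and to 12 with array weights. Without the 4 arrays with a spoiled background estimate, and likewise with cHF array 3 put back, 2 Gimap probes had an unadjusted p under 0.05 in cHF+F versus cHF and 4 in cHF+ROSI versus cHF. Signal over background limited the rest, since 6 of the 10 member probes could not be compared.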

Other observations

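Other cells of the muscle were followed by the same lists. All 10 macrophage markers could be compared. Their differences between the cHF+F and cHF mice were negative for 10 of 10 (median -0.16), beside 49.6% of all compared probes. At an unadjusted p under 0.05, 2 were lower, beside 4.00% of all compared probes (1, beside 3.95%, with capped background). In the cHF+ROSI mice 8 of 10 were negative (median -0.042), beside 54.7% of all compared probes, with 0 at that threshold. With capped background 9 of 10 were negative there, with a median of -0.13 and again 0 at that threshold. The mean of these markers correlated with the Gimap score at r = -0.090 within the groups, beside 0.38 for the endothelial and -0.40 for the 2 T cell markers. Of 7 blood markers 4 could be compared, with r = -0.26. In the cHF+ROSI mice all 4 were negative with a median of -0.44, beside 54.7% of all compared probes that were negative. Of these, 1 was lower at an unadjusted p under 0.05 (0 with capped background), beside 3.01% of all compared probes. The 6 adipocyte markers had a median of -0.080 in cHF+F and 0.038 in cHF+ROSI (-0.046 with capped background), with r = -0.11. The 1 neutrophil marker that could be compared, S100a9, differed by 0.26 in cHF+F and -0.0026 in cHF+ROSI (-0.17 with capped background). Its r with the Gimap score was -0.50, and -0.67 after slide means were removed.

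The muscle fibre markers moved with the background setting. In cHF+ROSI versus cHF all 10 were negative with a median of -0.17, beside 54.7% of all compared probes that were negative. With capped background 5 of 10 were negative with a median of -0.041.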
